A study of Danio rerio with 6 samples.

Results

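The 3 libraries described here are the wild-type controls of a study of the zebrafish embryonic kidney, out of 6 libraries in the series. Each control was made by laser capture from the distal tubule of the pronephros of embryos at 48 hours post fertilization. The embryos were epcam+/+ and carried both Tg(wt1b:GFP) and Tg(cdh17:GFP). The promoters of wt1b and cdh17 drive green fluorescent protein in these lines, so the captured cells carry reporters as well as their own transcripts. The other 3 libraries carry the same transgenes and are homozygous for the epcam allele hi2151. Their values are not described or compared with the controls, and enter only alternative fits given in the last section. The controls were taken by their labels. Controls 1 and 2 carry the code of a different sequencing project (NG-8793) from control 3 (NG-8710). The sources used here do not say how many embryos a library pools. Nothing in the labels says that the controls came from separate clutches, so the spread between them may be partly technical.

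The pronephros filters blood at a glomerulus and passes the filtrate along a tubule whose cells reclaim ions, sugars and proteins. The late segment of its distal part resembles the mammalian distal convoluted tubule. That segment runs on sodium pumps in the basal membrane and on sodium chloride cotransport in the apical membrane. Cadherin 17 marks the whole tubule in zebrafish, Slc12a3 is the thiazide-sensitive cotransporter of the late distal segment, and the receptor tyrosine kinase Ret marks the distal end of the tubule.

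The count table lists 10022 rows. Total counts, after the lowest value of each column was subtracted, were 552334 in control 1, 746232 in control 2 and 188022 in control 3. Levels are given as counts scaled to a library total of 1000000 (CPM), in the order of controls 1, 2 and 3. A single count stands for 1.81, 1.34 and 5.32 CPM, and a floor of 3 counts for 5.43, 4.02 and 16 CPM. CPM is not divided by transcript length, so it ranks genes by their share of counts and not by their number of transcripts. Intervals and floors cover counting error alone, since the cDNA was amplified before sequencing.

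The tubule markers cdh17, slc12a3 and ret were counted in each of the 3 controls, but far less often in control 3. Transcripts of cdh17 (ENSDARG00000005112, GRCz10 chromosome 16, 26900740 to 26929356) were counted 1406, 1515 and 22 times, or 2546, 2030.2 and 117 CPM. Those of slc12a3 (GRCz10 chromosome 18, 17594413 to 17609689) were counted 798, 1108 and 13 times, or 1445, 1485 and 69.1 CPM. Controls 1 and 2 lay close together for both genes, and control 3 lay far below them. The counts of ret (GRCz10 chromosome 13, 25454106 to 25502306) were 377, 315 and 3, or 683, 422 and 16 CPM. The 95% exact binomial intervals of control 3 were 73.3 to 177 CPM for cdh17, 36.8 to 118 for slc12a3 and 3.29 to 46.6 for ret. The label of a distal tubule capture therefore rests on many counts in controls 1 and 2 and on few in control 3. Fewer tubule cells in a capture and less RNA per tubule cell cannot be told apart in such bulk libraries.

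Of 15 pronephric epithelial markers listed, 12 had a row (pax2b, lhx1a and lhx1b are not analysed here). They summed to 12681, 10389.5 and 883 CPM, with 6 of 12 rows at 3 or more counts in every control against 31.4% of all rows. Of the sodium pump, the alpha subunit atp1a1a.4 was at 4509.9, 4247 and 314 CPM and the beta subunit atp1b1a at 4188, 3297 and 53.2 CPM. Copies of atp1a1a overlap one another on chromosome 1 and may share reads, so the split among them is uncertain. Both subunits were far lower in control 3. Of the factors that act early in kidney formation, pax2a was at 138, 173 and 37.2 CPM and pax8 at 110.4, 69.7 and 5.32 CPM. The homeobox gene emx1 had 6, 77 and 0 counts and osr1 45, 2 and 0. A further 3 members had few counts and were highest in control 3 as a share of the library. The epithelial adhesion protein epcam had 10, 15 and 10 counts, or 18.1, 20.1 and 53.2 CPM, the factor sim1a had 4, 1 and 2 counts, and hnf4a, also a liver factor, had 0, 2 and 17.

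Of 22 distal tubule markers listed, 17 had a row. They summed to 3317, 3033 and 1266 CPM, and 7 of 17 rows were counted at the floor or above in every control. The AP-2 factor tfap2a was the most even of them, at 123, 125 and 133 CPM. The T-box factor tbx2a was at 701, 141 and 74.5 CPM and its relative tbx2b had 21, 103 and 0 counts. The distal fate regulator mecom was at 47.1, 154 and 63.8 CPM, and the chloride channel clcnk at 63.4, 202 and 10.6 CPM. Both were highest in control 2, a pattern shared by ppp1r1b (6, 84 and 3 counts), tfap2b (11, 42 and 2), evx1 (1, 61 and 0) and irx1a (0, 22 and 0). In contrast gata3, a zinc finger factor of the distal duct that is also active in other epithelia, was at 90.5, 64.3 and 649 CPM, highest in control 3. This gene alone gave 649 of the 1266 CPM that the distal list summed to in control 3. The thick-limb cotransporter SLC12A1 had 0, 5 and 2 counts (0, 6.7 and 10.6 CPM), and irx2a had 13, 5 and 2 (23.5, 6.7 and 10.6 CPM). Potassium channel copies differed by library: kcnj1a.1 had 39, 6 and 0 counts, kcnj1a.5 0, 0 and 26 and kcnj1a.2 0, 0 and 12. These copies neighbour each other on chromosome 18 and may share reads, so which copy was counted is uncertain.

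**Figure D1:**
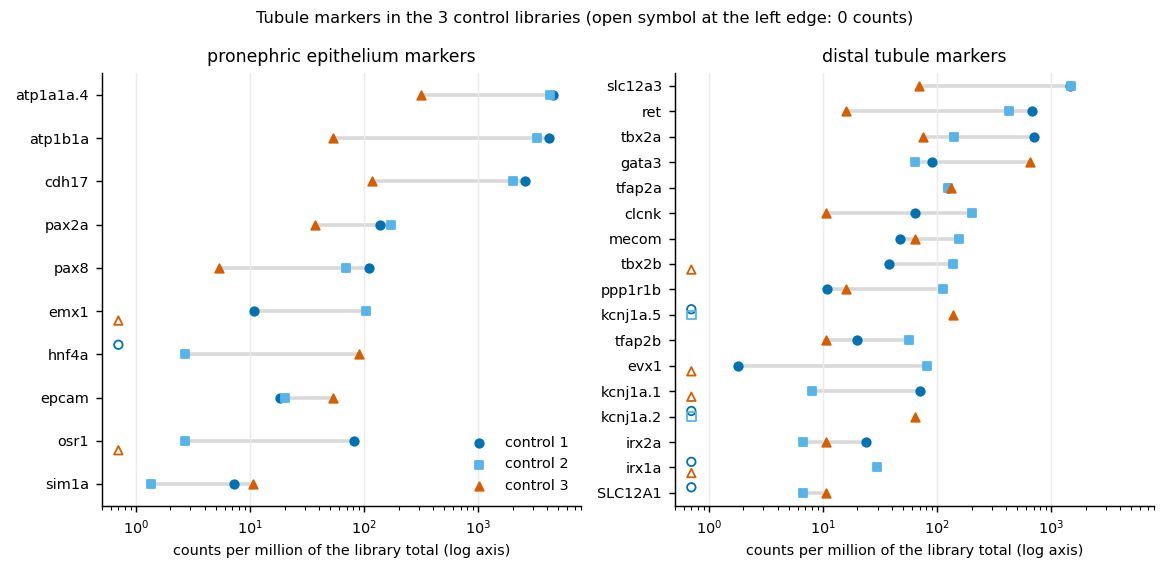
Levels of pronephric epithelial (left) and distal tubule (right) markers in CPM, on a log axis, with 1 symbol per control library and values of 0 drawn at the left edge. Controls 1 and 2 lie at 1445 and 1485 CPM for slc12a3 and at 2546 and 2030.2 CPM for cdh17, while control 3 lies at 69.1 and 117 CPM.

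Markers of other nephron structures were also counted. Proximal tubule markers summed to 1161, 784 and 149 CPM. The endocytic receptor lrp2a (megalin) had 146, 280 and 2 counts and the sodium-proton exchanger slc9a3.1 had 185, 32 and 0. Not every member fell in control 3. It was above both other controls for 4 of 12 rows and below both for 6, against 36.7% and 26.4% of all rows. In each of those 4 rows control 3 had 2 to 6 counts, near the floor of 3. Podocyte and glomerulus markers summed to 186, 595 and 329.7 CPM over 6 rows, from 14 markers listed. They were led by mafba (18.1, 343 and 90.4 CPM) and podxl (105, 28.1 and 176 CPM). The podocyte genes nphs1 and wt1b are not analysed here. Multiciliated cell markers summed to 675, 587 and 191 CPM. The axonemal dynein dnah5 had 264, 106 and 1 counts and the ciliary master factor foxj1a 81, 261 and 3. These 2 lead the sum, but row by row the list was mixed. For 5 of its 10 rows control 3 was above both other controls, and for 3 it was below both. In each of those 5 rows control 3 had 2 to 14 counts, and 1 count there stands for 5.32 CPM. Stanniocalcin genes, which are active in the calcium-regulating glands beside the distal tubule, differed between the libraries, with stc1l at 30, 112 and 2 counts and stc2a at 0, 0 and 361.

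Of the 10022 rows, 3149 (31.4%) had 3 or more counts in every control, and these held 73.5%, 75.3% and 72.4% of the counts of controls 1, 2 and 3. A further 1563 rows reached the floor in controls 1 and 2 but not in control 3. Rows at the floor in a single library numbered 815 for control 1, 885 for control 2 and 1014 for control 3. At equal depth the shared set was smaller: with controls 1 and 2 thinned to 188022 counts, the expected number of shared rows was 2204. At that depth control 3 had 5717 rows at the floor, against an expected 4959 and 4972 in the thinned controls 1 and 2. Within the shared rows the Spearman correlation of levels across genes, given as a description, was 0.408 between controls 1 and 2, 0.223 between controls 1 and 3 and 0.255 between controls 2 and 3. Each pair shares the gene set and the amplification method, and genes are not independent.

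The 25 rows with the highest lowest level over the 3 controls held 15.8%, 18.9% and 15.5% of counts. First among them was malat1, a nuclear long noncoding RNA (GRCz10 chromosome 14, 46643944 to 46651420), at 18471, 19078 and 14078 CPM, a mean of 17209 ± 2728 CPM (SD, n = 3). Control 3 was the lowest of the 3. Ribosomal proteins and elongation factors supplied 8 of the 25 rows. The elongation factor eef2b was at 11522, 11646 and 5611 CPM and eef1a1l1 at 3210.0, 2451 and 3053 CPM, and the ribosomal proteins rps23, rpl35, rpl4, rpl8, rpsa and rps3a had lowest levels between 1213 and 2494 CPM. The RNA-binding protein hdlbpa was at 1352, 1327 and 2766 CPM. Over all 89 ribosomal protein rows, 78 were shared, and they made up 5.95%, 4.11% and 3.72% of counts.

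Chaperones and the cytoskeleton came next. The constitutive chaperone hspa8 was at 8605, 11135 and 6009.9 CPM and the cytosolic chaperone hsp90ab1 at 4555, 3494 and 1638 CPM, both lowest in control 3. The cytoplasmic actin actb2 was at 4287, 4587 and 7733 CPM and actb1 at 6078, 1824 and 4159 CPM. The chromosome 14 copy of the tubulin tubb4b was at 5218, 3685 and 4616 CPM. The simple-epithelium keratin krt8 was even, at 2179.8, 2523 and 2042 CPM. In mitochondria, the ADP/ATP carrier slc25a5 was at 3820.2, 3629 and 1420.0 CPM and the outer-membrane channel vdac3 at 3654, 3197 and 1356 CPM. The cold-inducible RNA-binding protein cirbpb spanned a wide range, at 10638, 8858 and 1255 CPM, with control 3 far below the others. The basement membrane collagen col18a1 was at 1215, 1324 and 2478 CPM. The list also held 3 apolipoprotein genes of liver, gut and yolk. Apobb.1 was at 3817, 5868 and 32991 CPM, apoba at 1896, 1947 and 12780.4 and apoa1b at 1246, 2152 and 24072, each far higher in control 3. Both remaining rows are short stretches on GRCz10 chromosome 5 named otud4. The one at 833762 to 833929 had 21007, 37074 and 8834 CPM and the one at 822115 to 822282 had 25240.2, 42949 and 4749 CPM. Near-identical copies can share reads, so these values are uncertain. The last row inside the 25 was rps3a, with a lowest level of 1213 CPM, and the first outside was rplp0 with 1178 CPM.

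**Figure D2:**
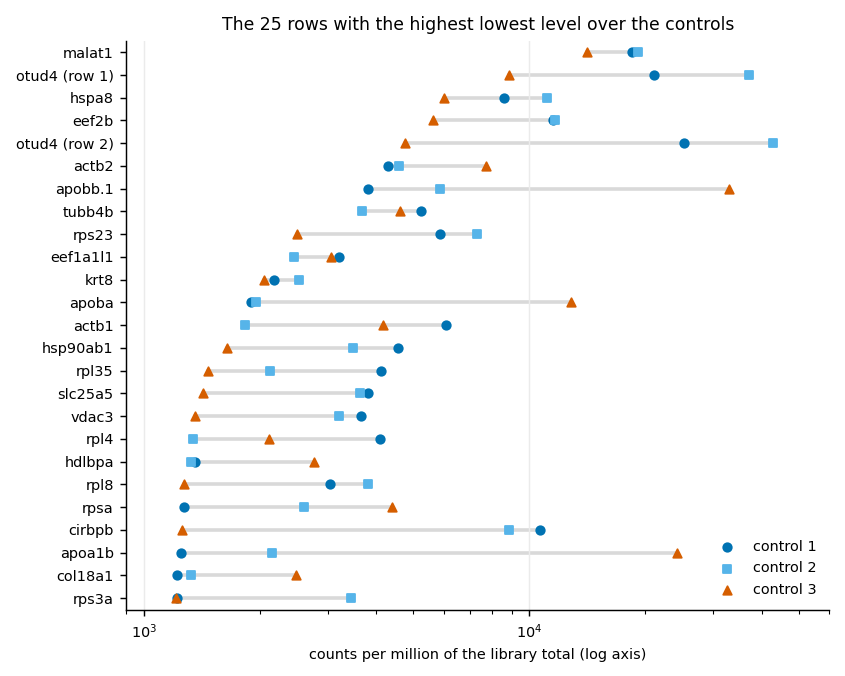
The 25 rows with the highest lowest level over the 3 controls, in CPM on a log axis, with 1 symbol per library and a grey line over their range. Symbols nearly coincide for krt8 (2179.8, 2523 and 2042 CPM), while control 3 stands far to the right for apobb.1, apoba and apoa1b.

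Few genes kept the same share of counts in all 3 libraries. Among shared rows the median ratio of the highest to the lowest CPM was 5.85, and 339 rows (10.8%) stayed within 2-fold. By a rule added after the data were seen, the rows with 50 or more counts in each control were ordered by this ratio. The extracellular matrix protein frem2b had the smallest, 1.16, at 317, 329.7 and 367 CPM. It was followed by the mitochondrial creatine kinase ckmt1 at 958, 825 and 819 CPM, the nuclear coactivator pnrc2 at 1137, 1344 and 1096 CPM and the Wnt secretion factor wls at 320.5, 352 and 287 CPM. Ribosomal proteins rpl9, rps16 and rpl10a, the peptidyl-prolyl isomerase ppiaa and krt8, eef1a1l1 and malat1 were also among the first 15.

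Transporter genes held a like share of counts in every control, 3.58%, 3.51% and 3.53%, or 35411 ± 357 CPM (SD, n = 3), while roles and single genes ranged widely. The sum of the pumps was lowest in control 3, and the sums of the channels and the ABC transporters were highest there. The ratio of control 3 to the mean of controls 1 and 2 was 0.995, and 0.766 with TMM scaling. Of 386 transporter rows, 87 were shared, which is 22.5% against 31.4% of all rows. Solute carriers summed to 16504, 17607 and 17189.5 CPM over 178 rows, of which 47 were shared. Mitochondrial carriers led, with slc25a5 as given above and the phosphate carrier slc25a3b at 2694, 3678 and 1159 CPM. At the cell surface the sodium-phosphate cotransporter slc20a1b was at 549, 848 and 340.4 CPM, the amino acid carrier slc43a2b at 688, 319 and 1319 CPM and its counterpart slc7a8b at 309.6, 138 and 266 CPM. The anion transporter slc26a5 was at 143, 178 and 207 CPM. The most counted carrier of control 3 was slc13a2, a sodium-dicarboxylate cotransporter, with 2, 0 and 381 counts.

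ATP-driven pumps summed to 13919, 11072 and 3042 CPM, and 19 of 37 rows were shared. Control 3 was above both other controls for 12 of the 37 rows and below both for 13, against 36.7% and 26.4% of all rows. Beside atp1a1a.4, the sodium pump copy atp1a1a.1 was at 1001, 919 and 271 CPM and atp1a1a.2 at 693, 177 and 117 CPM. These too were lowest in control 3. The plasma membrane calcium pump atp2b4 was at 156, 876 and 128 CPM, highest in control 2, and the reticulum calcium pump atp2a2b was even at 67, 68.3 and 58.5 CPM. The proton pump subunit atp6v0ca, at 81.5, 79.1 and 308 CPM, was highest in control 3. Channels were mostly scattered: 16 of 141 rows were shared, and the median range among those was 12.1-fold against 5.85-fold over all shared rows. They summed to 3822, 4118 and 7371 CPM. Control 3 was above both other controls for 78 of the 141 rows and below both for 19. The anoctamin ano9a was at 387, 423 and 749.9 CPM and the polycystin PKD1 at 177, 296 and 63.8 CPM. Of the calcium release channels, itpr1a was at 34.4, 248 and 85.1 CPM and itpr3 at 139, 29.5 and 165 CPM. The channel ryr1b was at 243, 20.1 and 26.6 CPM, the last from 5 counts. The volume-regulated channel subunit lrrc8db was at 25.3, 21.4 and 202 CPM. ABC transporters summed to 1568, 2334 and 7685 CPM, with control 3 above both others for 10 of 30 rows and below both for 7. Among them the cholesterol exporter abca1b was at 273, 157 and 2558 CPM, highest in control 3. Of the others, abca3b was at 85.1, 537 and 362 CPM and abcc5 at 68.8, 219.8 and 112 CPM. The copy abca1a was at 21.7, 145 and 42.5 CPM and the mitochondrial abcb8 at 32.6, 12.1 and 447 CPM.

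Transcription factor genes made up 3.27%, 2.85% and 2.66% of counts, and 133 of 409 rows (32.5%) were shared, close to the 31.4% of all rows. In the homeodomain, paired and LIM class (25 of 100 shared) cux1a was at 766, 403 and 165 CPM and zfhx3 at 150.3, 399 and 159.6 CPM. The Hox partner meis1b was at 83.3, 166 and 122 CPM and the position factor hoxa3a at 76, 173 and 223 CPM. A further Hox partner, pbx4, had 527, 97 and 14 counts, most of them in control 1. The organ-placode factor six1a was not shared, with 0, 40 and 108 counts. The class of forkhead, Sox, T-box and AP-2 factors had 26 of 91 rows shared. It also held factors of other families, such as gata3, tcf3b, tcf7l1b, tead3a and grhl1. In it foxp4 was at 172, 143 and 261 CPM beside the even tfap2a. The E-protein tcf3b was at 81.5, 199.7 and 58.5 CPM, and the insulin-responsive foxo1a at 57.9, 95.1 and 548 CPM. The leading member of this class in each library was low elsewhere: the Wnt repressor tcf7l1b with 577, 53 and 1 counts, the Hippo partner tead3a with 0, 453 and 10, and the epidermal factor grhl1 with 2, 0 and 181.

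Nuclear receptors were low but present, with 11 of 37 rows shared. The retinoid receptor rxrba was at 92.3, 37.5 and 90.4 CPM and raraa at 77.9, 28.1 and 79.8 CPM, both lowest in control 2. The estrogen-related receptor esrra, a regulator of mitochondrial genes in mammals, was at 315, 452 and 37.2 CPM, and its relative esrrga at 14.5, 10.7 and 128 CPM. Control 3 was lowest for esrra and highest for esrrga. The COUP factor nr2f5 was at 34.4, 247 and 69.1 CPM and the oxysterol receptor nr1h3 at 27.2, 18.8 and 42.5 CPM. The receptor nr4a3 was at 0, 230 and 186 CPM, while nr2e1 had 192, 0 and 0 counts. Among zinc finger factors klf6a was high and even, at 485, 379 and 351 CPM. The Sp factor sp4 had 35, 58 and 19 counts and sp3b had 52, 39 and 28. Others were far higher in a single library: prdm2b was at 63.4, 791 and 63.8 CPM and casz1 at 588, 73.7 and 58.5 CPM. PRDM16 had 481, 208 and 1 counts.

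The class of bZIP, bHLH, ETS and signal-activated factors had the largest shared fraction of the 5 factor classes, 55 of 122 rows. The AP-1 subunit jun was at 241, 834 and 277 CPM and jund at 83.3, 138 and 85.1 CPM. The AP-1 partner fosab, an immediate early gene, was counted 1246, 1759 and 0 times, which makes it the most counted factor of controls 1 and 2 in this class and unseen in control 3. In control 3 the floor of 3 counts is 16 CPM, and the upper 95% exact binomial limit of a count of 0 is 19.6 CPM. The acute-phase factor cebpd was at 932, 159 and 378 CPM, the hypoxia-related hif1al at 429, 84.4 and 505 CPM and the stress-response atf4a at 362, 92.5 and 79.8 CPM. The glucose-sensing partner mlx was at 119, 79.1 and 207 CPM. None of these 4 had the same highest library as jun.

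Matrix genes made up 2.06%, 2.15% and 3.01% of counts, and 71 of 172 rows (41.3%) were shared, against 31.4% of all rows. Collagens had 20 of 33 rows shared and summed to 7166, 7033 and 15541 CPM. The fibril-associated col12a1b was at 708, 1611 and 2936 CPM and col12a1a at 391, 587 and 346 CPM. The fibrillar collagen col1a1a, typical of mesenchyme and fibroblasts, was at 1319.8, 611 and 2393 CPM, its copy col1a1b at 943, 379 and 1915 CPM, and col5a1 at 550.4, 329.7 and 489 CPM. Control 3 was the highest for both copies of col1a1 and for col18a1. Mesenchyme and fibroblast markers summed to 4077, 2077 and 8536 CPM over 12 rows that include 6 collagens, and their part in the collagen sums was not tested.

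Basement membrane glycoproteins, which underlie every epithelium, had the largest shared fraction of the matrix roles, 17 of 27 rows. They summed to 5169, 6664 and 3266 CPM, lowest in control 3. Row by row the role was mixed. Control 3 was above both other controls for 10 of 27 rows and below both for 9, against 36.7% and 26.4% of all rows. The laminin chain lamc1 was at 581, 448 and 362 CPM, lama5 at 959.6, 787 and 314 CPM and lamb1a at 507, 1242 and 122 CPM. The heparan sulfate proteoglycan hspg2 (perlecan) was at 491, 549 and 176 CPM and agrn (agrin) at 1195, 2105 and 122 CPM. For all 5 of these genes control 3 was the lowest, whereas frem2b was even. Interstitial glycoproteins summed to 2531, 3157 and 7223 CPM. The periostin postnb was at 463, 441 and 1154 CPM, the fibronectin fn1a at 83.3, 129 and 548 CPM and the fibulin fbln2 at 81.5, 57.6 and 362 CPM, each highest in control 3. Tenascin tnc was at 161, 273 and 138 CPM, thrombospondin thbs1b at 165, 496 and 112 CPM and the fibrillin FBN3 at 170.2, 272 and 47.9 CPM, each highest in control 2.

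Of the integrin and matrix receptor rows 11 of 29 were shared, and of the matrix enzyme rows 10 of 40. Dystroglycan dag1, a laminin receptor, was at 884, 752 and 319 CPM, and the syndecan sdc2 at 610.1, 268 and 542 CPM and sdc4 at 221, 199.7 and 314 CPM. The integrin subunit itga6b, part of laminin receptors, was at 440.0, 106 and 95.7 CPM and itgb1b.1 at 110.4, 24.1 and 207 CPM. The fibronectin receptor subunit itga5 was at 116, 1091 and 133 CPM, highest in control 2. Among matrix enzymes the membrane metalloprotease MMP15 (1 of 2) had 51, 142 and 22 counts, mmp14b had 16, 83 and 3 and the gelatinase mmp2 had 37, 25 and 5. The protease adamts9 had 17, 261 and 54 counts, adamts18 had 77, 47 and 5, the prolyl hydroxylase p4ha1b had 16, 11 and 15, and htra1a was seen in control 1 alone (375, 0 and 0).

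**Figure D3:**
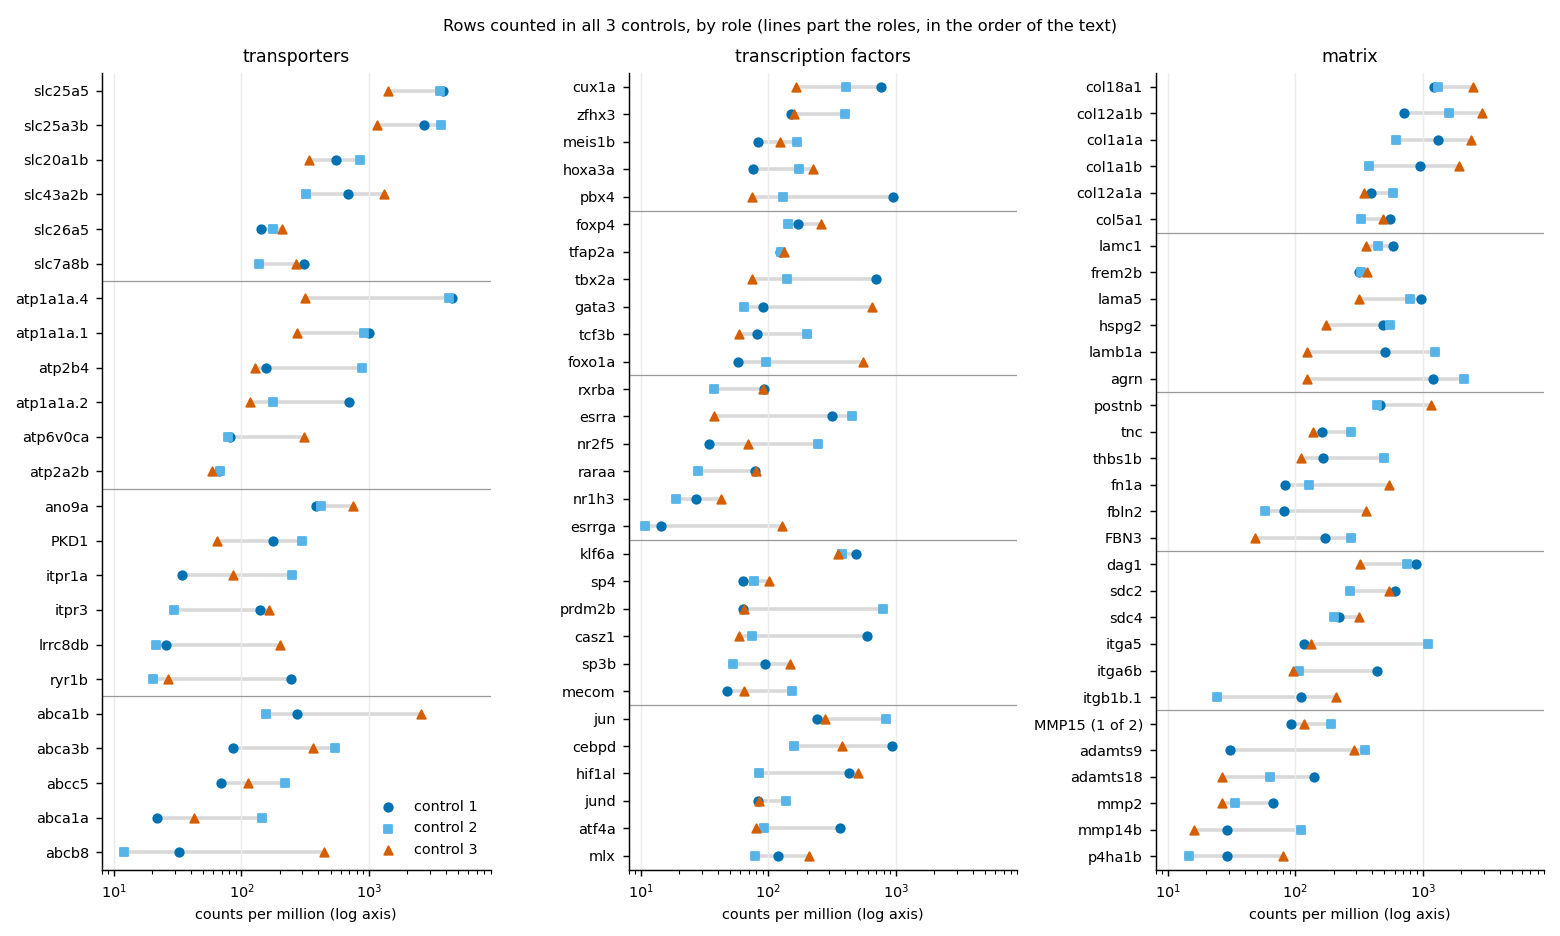
Levels of the transporter (left), transcription factor (middle) and matrix rows (right) that were counted in all 3 controls, at most 6 per role, in CPM on a log axis, with 1 symbol per library. The horizontal lines part the roles, and the symbols lie close for tfap2a (123, 125 and 133 CPM) and frem2b (317, 329.7 and 367 CPM) but far apart for atp1a1a.4 and abca1b.

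Markers of some cell types other than the tubule differed in their share between the libraries. Gut, liver and yolk markers made up 1.17%, 1.43% and 12.1% of counts, and keratinocyte and periderm markers 0.0538%, 0.0385% and 4.03%. Skeletal and heart muscle markers made up 5%, 0.536% and 0.203%, so the muscle sum was high in control 1 alone. There it was far above control 2 of the same project. The heart genes myl7 and vmhc of that list were nearly uncounted, with 0, 1 and 0 counts and 1, 0 and 0 counts. Over all rows, control 3 lay above both other controls for 36.7% and below both for 26.4%. It lay above both for 34 of 35 gut, liver and yolk rows, for 17 of 19 keratinocyte rows and for 9 of 12 mesenchyme rows. It lay below both for 9 of 12 pronephric epithelial rows, for 8 of 17 distal tubule rows and for 17 of 29 muscle rows. The lists were chosen with earlier results of these data known, so these counts are a description and not a test. The ratio of control 3 to the mean of controls 1 and 2 was 9.31 for the gut, liver and yolk sum, 87.3 for the keratinocyte sum and 0.0765 for the pronephric epithelial sum, and 7.15, 67.5 and 0.0591 with TMM scaling. How far the other cell types account for the lower tubule sums of control 3 was not tested.

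Nuclear-encoded respiratory chain subunits summed to 11975, 14608 and 2468 CPM, and control 3 was below both others for 45 of 59 rows. Stress and immediate early genes summed to 21000.0, 20999 and 10249 CPM, with control 3 below both for 13 of 26 rows and above both for 5 of 26. Most of that sum came from hspa8, hsp90ab1 and fosab in controls 1 and 2, while the phosphatase dusp6, picked out after its values were seen, was highest in control 3 at 103, 194 and 356 CPM. Ionocyte and proton pump cell markers summed to 1495, 1512 and 1319 CPM, and this list shares members with the pumps above. Of 20 endothelial markers listed, 10 had a row, and these summed to 766, 205 and 404 CPM. The receptor flt4 was at 259, 56.3 and 117 CPM and the cadherin cdh5 at 291, 21.4 and 31.9 CPM, the last from 6 counts. Blood markers had 47, 83 and 21 counts in all over 5 rows, led by spi1b (28, 5 and 14 counts) and hbae1 (0, 49 and 0). Of 24 neuron and glia markers listed, 4 had a row, and these summed to 79.7, 5.36 and 26.6 CPM. The gene elavl4 had 40, 2 and 5 counts and nova2 had 4, 2 and 0, while nova1 and zic2a had none. The counts were filtered before deposit, so a marker without a row cannot be read as uncounted.

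**Figure D4:**
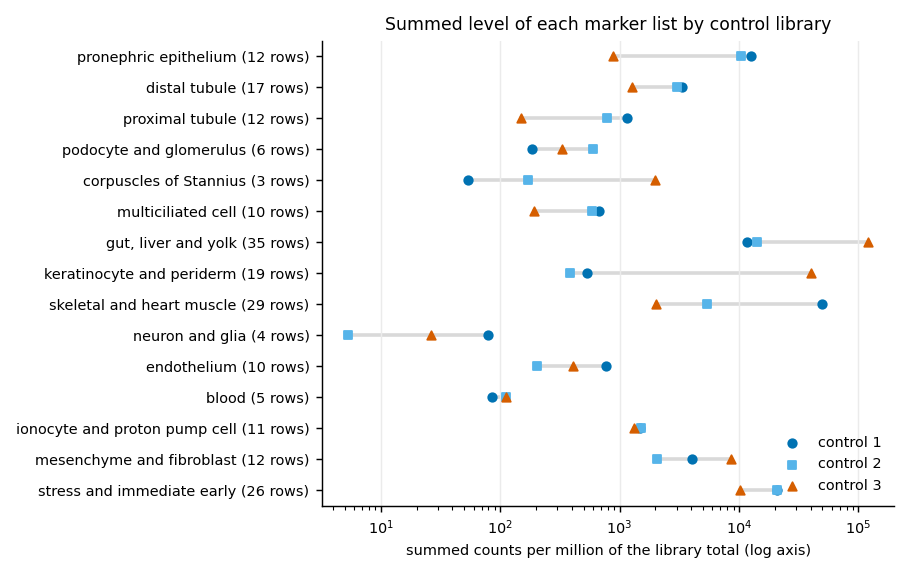
Summed level of each marker list in CPM, on a log axis, with 1 symbol per control library and the number of rows in brackets. Control 3 stands alone on the right for keratinocyte and for gut, liver and yolk markers and on the left for pronephric epithelium, and control 1 stands alone on the right for muscle.

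A test of single genes between control 3 and controls 1 and 2 asks which rows differ beyond the spread between controls 1 and 2. With 1 library against 2, project and library cannot be told apart, and controls 1 and 2 alone give the spread. In simulated counts at the estimated dispersion, the edgeR test given below recovered 0% of 8-fold and 0.5% of 64-fold differences. A lack of calls by it therefore says little. A permutation of 1 against 2 libraries cannot reach a two-sided exact p below 0.333. By edgeR's quasi-likelihood F test, adjusted by Benjamini and Hochberg's method, 0 of 6427 rows (0%) were called, and the smallest adjusted p was 0.0832. At an unadjusted p under 0.05 it counted 301 rows higher in control 3 (4.68%) and 96 lower (1.49%). DESeq2, at an adjusted p under 0.05, called 52 higher (0.809% of the 6427) and 8 lower (0.124%). It gave an adjusted p to 2440 of those rows. TMM scaling moved the median log2 difference of the 6427 rows by -0.30, from -0.37 to -0.68. Of the rows tested, 310 had no count in controls 1 and 2 and 901 none in control 3, so they entered the test through the other side. The median fitted log2 difference of all rows tested was -0.73.

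Of the rows higher in control 3, the 12 with the smallest p are described, chosen by that p. The first was bri3, a small membrane protein, with 31, 8 and 4057 counts and a log2 difference of 9.08 ± 1.29 (SE; edgeR adjusted p = 0.0832). The skin keratin krt4 had 97, 179 and 4263 counts and a log2 difference of 6.48 ± 1.01 (SE; edgeR adjusted p = 0.0975). The retinol carrier rbp4, made in liver, had 57, 87 and 2746 counts and a log2 difference of 6.77 ± 1.14 (SE; edgeR adjusted p = 0.119). All 3 genes were above the floor in every control, and control 3 lay 646-fold, 109-fold and 133-fold above the mean CPM of controls 1 and 2. Folds here and below are of CPM per library total, whereas the log2 differences are edgeR fits with TMM scaling. The calcium-binding icn had 3, 17 and 875 counts and was 329.9-fold higher. The skin keratin krtt1c19e had 0, 0 and 308 counts and was at least 347-fold higher against 3 counts per library. Stanniocalcin stc2a was at least 406-fold higher on the same floor. The vimentin-like viml (1, 0 and 460 counts) gave a ratio over pooled controls 1 and 2 of 3177 (95% interval 567 to 125753). For the orphan receptor gpr176, with 0, 1 and 404 counts, that ratio was 2790.2 (95% interval 498 to 110477). For the carrier slc13a2 it was 1316 (95% interval 362 to 10903). Intervals of pooled ratios cover counting error alone and leave out the spread between libraries, so they do not test a difference between projects. The cytoskeletal linker gas2l1 had 4, 0 and 451 counts, si:ch211-195b11.3 had 3, 3 and 367 and si:dkey-202l22.6 had 0, 0 and 189.

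The 12 rows with the smallest p among the lower ones had edgeR adjusted p-values of 0.374 to 0.693. The sodium pump subunit atp1b1a, already described, was 70.4-fold lower in mean CPM, with a log2 difference of -6.40 ± 1.68 (SE; edgeR adjusted p = 0.693). The ATP synthase subunit atp5g1 had 1262, 2485 and 8 counts, 66-fold lower. The mitochondrial coactivator ppargc1a had 411, 715 and 0 counts, 53.3-fold lower when 3 counts stand in for the 0. Fosab was 145-fold lower on the same floor, which is a set value and not a 95% limit. The xenobiotic enzyme cyp1a had 987, 2210 and 7 counts and the guanylin receptor gucy2c 379, 11502 and 4, so control 2 alone carried most of the gucy2c counts. The mitochondrial immune regulator nlrx1, by contrast, came mostly from control 1, with 4238, 484 and 10 counts. The G protein subunit gnal2 had 1490, 2007 and 2 counts, a pooled ratio of 253 (95% interval 70 to 2091) for controls 1 and 2 over control 3. That interval too covers counting error alone. The splicing factor srsf3a had 604, 487 and 0 counts, st5 348, 967 and 0 and the membrane-shaping bin2a 540, 418 and 0, and an otud4 row was among them too, at 7.18-fold lower.

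**Figure D5:**
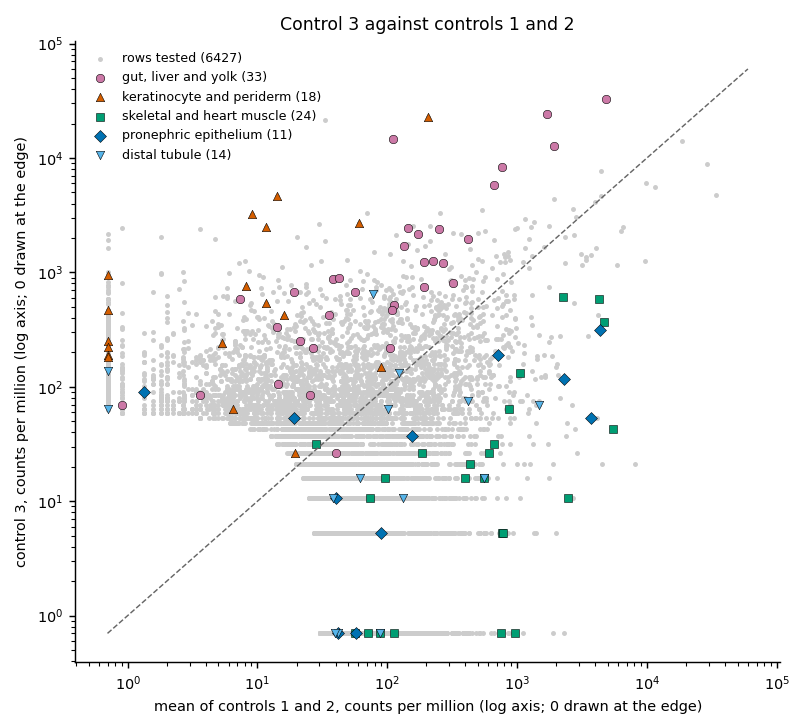
Each point is a tested row, placed by the mean level of controls 1 and 2 (horizontal) and the level of control 3 (vertical), both in CPM on log axes with 0 drawn at the edge, and coloured symbols are marker list members. Keratinocyte symbols lie above the dashed line of equal levels, and so do gut, liver and yolk symbols with 1 exception. Tested or not, 27 of 29 muscle and 9 of 12 pronephric epithelial rows were lower in control 3 than that mean. The same held for 1 of 35 gut, liver and yolk rows and 0 of 19 keratinocyte rows.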

How the data were processed

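RNA-seq libraries were made from laser-captured tissue: per the labels' protocols, RNA was freed of crosslinks, treated with DNase, reverse transcribed with random and oligo(dT) primers and amplified, and the libraries were unstranded, so genes that overlap on opposite strands cannot be told apart. Trimmomatic 0.36.0, TopHat2 2.1.0, DESeq2 and GRCz10 are named in the submitters' processing notes. No counting tool is named in the sources used here. The authors deposited raw counts, already filtered in a way not stated. Each column's lowest value (11, 0 and 32 for controls 1 to 3) was subtracted as a constant inferred from the values, which no label states. The upper quartile of the deposited counts was 45, 45.75 and 45. Of 10022 identifiers 9641 were in the reference name table.

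CPM is per library total. Tests used R 4.3.3, edgeR 4.0.16 (quasi-likelihood, robust, TMM) and, as an alternative, DESeq2 1.42.0, on rows with a mean CPM of 20 or more, with Benjamini-Hochberg adjustment at 0.05. Simulated counts at the estimated dispersion gave 0% recovery of 8-fold and 0.5% of 64-fold differences, and 26% and 71% at a dispersion of 0.2. The SE of an edgeR log2 difference is its absolute value divided by the square root of its F statistic, and is not a spread over replicates. Bounds and folds against a count of 0 use 3 counts per library, a set floor and not a 95% limit. Intervals are exact 95% binomial ones. The members and lists were chosen with earlier results of these data known. Lists were matched by symbol or name pattern, and names that do not belong were removed after the table was read. Named were the top 25 rows, all tubule markers, 6 shared rows per role with the leading row of each library, 2 rows per other marker list and 12 rows per direction. The authors' mutant comparisons were not used. A few members of the lists enter the sums and counts but are not reported here by name.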

Additional observations from a re-analysis of the deposited data

How the results depend on the processing

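The count of 0 rows called between control 3 and controls 1 and 2 was 10 without a filter (8 higher, 2 lower) and 60 by DESeq2, which gave an adjusted p to 2440 of the 6427 rows. It stayed at 0 with upper-quartile or RLE scaling, a mean CPM of 100, the values as deposited, all 6 libraries in the fit, without control 1 or 2 in that fit (0 to 0, the lone sample being assumed to vary like the others), and without otud4 rows and 9 rows named as dates. Without control 3 there is no contrast. Simulated counts at the estimated dispersion gave almost no recovery in the main fit, so a count that stays at 0 does not show that the libraries are alike. No log2 difference of a named row changed sign. The shared rows numbered 4837 at 1 count, 1394 at 10 counts and 6491 on the values as deposited, and between 3809 and 4712 with 1 control left out. Ranked by mean CPM, 14 of the 25 top rows remained, against 19 on the values as deposited and 17 to 21 with 1 control left out. The transporter level of 35411 CPM was 36239 as deposited and 37193 without otud4 rows in the total, and the transcription factor level of 29251 CPM was 32693 as deposited. Leaving out 1 control gave 5636 to 11535 CPM for pronephric epithelial markers, 2149 to 3175 for distal markers, 35209.8 to 35551 for transporters, 27546 to 30586 for transcription factors and 21051 to 25785 for matrix. Ranking per coding length was not run, since no transcript lengths were at hand. No paired analysis was possible because the controls are 1 group. Depth limits control 3, where 3 counts equal 16 CPM.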
